A study of Mus musculus with 6 samples.

Results

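The alpha class of cytosolic glutathione S-transferases (GST) was followed through small intestinal adenomas of mice with and without PC depletion (PC, Paneth cell). Members were taken by gene name, namely Gsta1, Gsta2, Gsta3 and Gsta4 and the paralog Gm10639 on chromosome 9, giving 5 of the 48440 genes measured. All 5 passed the filter of a mean FPKM (fragments per kilobase of transcript, set against all fragments of a library) of at least 1 over the 6 libraries. The group was picked with its levels in both genotypes known, so the difference between genotypes is given for the members as a description without a test.

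RNA-seq was performed on adenoma polyps of 3 ApcMin and 3 ApcMin.PCdel samples, named QC4, QC5 and QC6 (ApcMin) and QC3, QC8 and QC10 (ApcMin.PCdel). All mice carried the Min allele of the tumor suppressor Apc on a C57BL/6 background and were older than 42 days. By the study's methods, PCdel mice were Defa4-Cre, Rosa26 iDTA/WT and the controls were littermates with Rosa26 iDTA/WT but without the Cre, so the silent toxin allele was common to both groups. Cre came from an IRES-Cre cassette knocked into Defa4 in 129/svJ embryonic stem cells, is active in the PC lineage, and switches on the alpha subunit of diphtheria toxin in it. The labels do not say that the libraries of a group came from separate mice, so the spread between libraries may in part be technical and p-values measure only that spread.

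Cytosolic GST enzymes join the thiol of glutathione to reactive, mostly electrophilic compounds, which makes these more soluble and marks them for export from the cell. The alpha class is abundant in liver and in the absorptive epithelium of the small intestine, where it handles dietary toxicants and products of lipid peroxidation, and several of its genes are induced by the transcription factor NRF2 through antioxidant response elements. Gsta1 and Gsta2 encode closely related enzymes that also reduce lipid hydroperoxides. Gsta4 prefers hydroxynonenal and related aldehydes released from oxidized lipids, and Gsta3 of the mouse is known for detoxifying the epoxide of aflatoxin B1.

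The members lie at a pair of loci. In GRCm38, Gsta4 (78191966 to 78209348, plus strand), Gsta1 (78230656 to 78242684, plus), Gm10639 (78289923 to 78305525, plus) and Gsta2 (78331018 to 78355788, minus) lie within 163.8 kb of chromosome 9. Gsta3 is on chromosome 1 (21240589 to 21265661, plus). In the GENCODE M21 annotation of that build, the coding sequence has 669 bases in Gsta1, 666 in Gsta2, Gm10639 and Gsta4, and 663 in Gsta3, in transcripts of 7 exons (8 for Gm10639). The annotated start of Gsta4 there, 78182774, lies upstream of the start in the deposited values.

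The first 60 coding bases, read from GENCODE M21 transcripts, are shown because they separate the set into a near-identical trio and a pair of diverged genes. Capitals mark bases that differ from Gsta1, counted position by position from the start codon.
Gsta1: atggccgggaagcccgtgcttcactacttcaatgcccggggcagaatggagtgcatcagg
Gsta2: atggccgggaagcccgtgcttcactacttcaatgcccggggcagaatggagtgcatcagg
Gm10639: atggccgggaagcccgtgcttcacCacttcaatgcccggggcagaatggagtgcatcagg
Gsta4: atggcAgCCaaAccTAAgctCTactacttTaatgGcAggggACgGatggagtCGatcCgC
Gsta3: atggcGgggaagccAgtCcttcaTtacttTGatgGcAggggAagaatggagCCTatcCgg

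Gsta2 was the same as Gsta1 over this stretch and Gm10639 differed at 1 base, whereas Gsta4 differed at 19 and Gsta3 at 13. Over the whole coding sequence, Gsta1 and Gsta2 shared 98% of bases (13 of 666 differed), Gsta1 and Gm10639 97.4%, and Gsta2 and Gm10639 98.5%. Identity to Gsta1 was 74.1% for Gsta3 and 65.8% for Gsta4. Only 20 of 666 coding positions differed among Gsta1, Gsta2 and Gm10639. A stretch from coding base 469 to 528 holds 6 of them, and is shown because such positions are what lets a read be assigned to a particular gene of the trio. Capitals mark the positions at which the trio differs.
Gsta1: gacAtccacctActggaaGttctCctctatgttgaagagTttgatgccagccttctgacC
Gsta2: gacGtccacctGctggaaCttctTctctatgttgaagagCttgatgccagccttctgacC
Gm10639: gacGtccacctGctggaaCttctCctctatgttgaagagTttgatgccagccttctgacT

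How far reads can be told apart was measured as the share of a gene's 31-base words, over all its annotated transcripts and on either strand, that a transcript of another gene also holds. That share was 92.9% for Gsta1, 60.7% for Gsta2 and 62.4% for Gm10639, against 2.75% for Gsta3 and 0% for Gsta4. With 75-base words it was 84.7% for Gsta1, 36.6% for Gsta2 and 37.3% for Gm10639, and 0% for both Gsta3 and Gsta4. Most of the overlap of Gsta1 was with Gm3776, an annotated paralog between Gsta1 and Gm10639. The coding sequence of Gm3776 differs from that of Gsta1 at 2 of 669 bases. It was not among the 37 non-member genes found within 1 Mb of the chromosome 9 members in the deposited values, so it has no level of its own here. How reads that match several genes were divided is not given in the sources used here. The separate levels of Gsta1, Gsta2 and Gm10639 are therefore uncertain, and their sum may also hold reads from Gm3776. Gsta4 and Gsta3 can be read on their own.

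Gsta1 was the most abundant member. Its level was 170.5, 217.0 and 219.1 FPKM in ApcMin libraries QC4, QC5 and QC6, and 136.8, 99.4 and 106.0 FPKM in ApcMin.PCdel libraries QC3, QC8 and QC10. All 3 ApcMin.PCdel libraries were below all 3 ApcMin libraries, with QC3 the nearest to the controls. The mean was 202.2 ± 27.4 FPKM (SD, n = 3) in ApcMin adenomas and 114.1 ± 20.0 FPKM (SD, n = 3) in ApcMin.PCdel adenomas, 56.4% of the former. On the log2(FPKM + 1) scale, which is used for all differences below and understates those of weakly expressed genes, the difference was -0.82 (standard error 0.17).

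Gsta2 followed the same order of libraries. It was at 95.3, 116.2 and 124.3 FPKM in QC4, QC5 and QC6, and at 77.9, 57.0 and 59.999 FPKM in QC3, QC8 and QC10. The groups did not overlap, and QC8 was again the lowest library. Means were 111.9 ± 14.98 and 65.0 ± 11.3 FPKM (SD, n = 3 each), a log2 difference of -0.78 (standard error 0.16).

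Gm10639, annotated as a predicted gene of the same class, was the least abundant of the trio. Its level was 23.0, 24.4 and 28.9 FPKM in QC4, QC5 and QC6, and 18.5, 15.9 and 14.2 FPKM in QC3, QC8 and QC10. The groups did not overlap here either, although the lowest ApcMin.PCdel library was now QC10. Means were 25.4 ± 3.09 and 16.2 ± 2.16 FPKM (SD, n = 3 each), a log2 difference of -0.62 (standard error 0.14). For these 3 members together, the summed level was 339.6 ± 44.5 FPKM in ApcMin and 195.3 ± 33.1 FPKM in ApcMin.PCdel adenomas (SD, n = 3 each), or 57.5%.

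Gsta4 varied more among the controls. It was at 98.2, 121.4 and 52.3 FPKM in QC4, QC5 and QC6, and at 66.0, 55.1 and 47.5 FPKM in QC3, QC8 and QC10. The control library QC6 fell inside the range of the ApcMin.PCdel libraries, so the groups overlapped. Means were 90.6 ± 35.1 and 56.2 ± 9.30 FPKM (SD, n = 3 each), a log2 difference of -0.61 with a standard error of 0.31. Without QC6 this difference was -0.96, and without QC5 it was -0.36.

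Gsta3 was the least abundant member and the only one with a higher mean in ApcMin.PCdel adenomas. Its level was 12.4, 19.5 and 7.48 FPKM in QC4, QC5 and QC6, and 19.1, 12.2 and 17.2 FPKM in QC3, QC8 and QC10. The groups overlapped, QC5 being the highest library of all and QC6 the lowest. Means were 13.1 ± 6.05 and 16.2 ± 3.58 FPKM (SD, n = 3 each), a log2 difference of 0.35 with a standard error of 0.33. This direction rested on QC6, the difference being 0.03 without it, and with limma's array quality weights, which gave QC6 the least weight of the 6 libraries, it was -0.040.

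**Figure D1:**
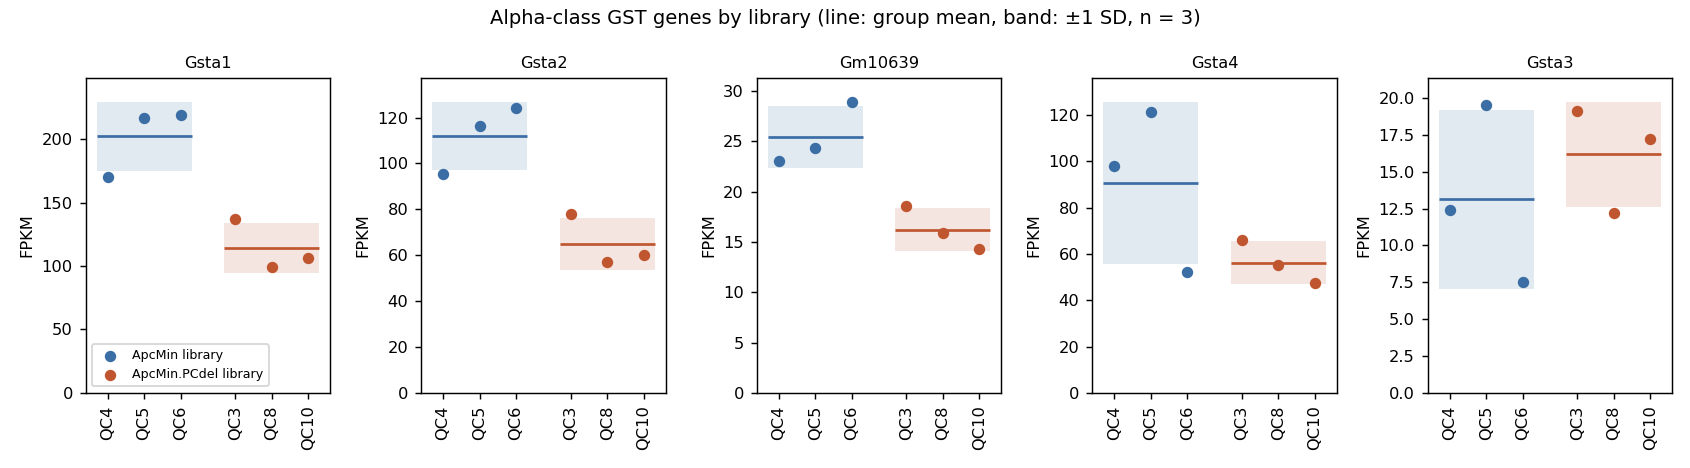
FPKM of each of the 5 alpha-class GST genes (vertical axis, from 0, a scale of its own in each panel) in the 3 ApcMin and 3 ApcMin.PCdel libraries (horizontal axis). Points are libraries, lines group means and bands 1 SD on either side (n = 3). Gsta1, Gsta2 and Gm10639 show no overlap between groups, whereas QC6 drops to 52.3 FPKM for Gsta4 and 7.48 FPKM for Gsta3.

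Counting over the set, 3 of 5 members had every ApcMin.PCdel library below every ApcMin library, 4 had a lower mean and 1 a higher mean. Among all 14240 genes tested, 7.54% had groups that did not overlap in either direction, 1.54% did not overlap with ApcMin.PCdel lower, and 36.9% had a lower mean log2 level. Since the members were chosen on this contrast, nothing is read from these counts. The median difference was -0.62 over the members and 0.04 over all genes tested. The summed level of the 5 members was 399.4, 498.5 and 432.1 FPKM in QC4, QC5 and QC6, and 318.4, 239.6 and 245.0 FPKM in QC3, QC8 and QC10. The 2 groups did not overlap in this sum either. It averaged 443.3 ± 50.5 FPKM in ApcMin and 267.7 ± 44.0 FPKM in ApcMin.PCdel adenomas (SD, n = 3 each), so ApcMin.PCdel adenomas held 60.4% of the control level. In bulk tissue, fewer cells of a type and less RNA per cell cannot be told apart.

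Within a library, the members did not keep the same proportions. Gsta2 stood at 55.9%, 53.6% and 56.7% of the Gsta1 level in QC4, QC5 and QC6, and at 56.9%, 57.3% and 56.6% in QC3, QC8 and QC10. This ratio was nearly the same in all libraries (coefficient of variation 2.42% over 6), in 2 genes that share much of their sequence. Gm10639 ranged from 11.2% to 15.96% of Gsta1 (coefficient of variation 11.2%), without separating the groups. Gsta4 ranged from 44.8% to 57.6% of Gsta1 in 5 libraries and was at 23.9% in QC6.

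Gsta3 stood apart in these ratios. It was at 7.25%, 8.995% and 3.42% of Gsta1 in QC4, QC5 and QC6, and at 13.9%, 12.2% and 16.3% in QC3, QC8 and QC10. The ratio was 6.56% ± 2.85 in ApcMin and 14.1% ± 2.01 in ApcMin.PCdel adenomas (SD, n = 3 each), and the groups did not overlap although those of Gsta3 itself did. Gsta1 was chosen with its lower level in ApcMin.PCdel adenomas known, so this denominator moves the groups apart by itself. How many other genes separate in this way was not worked out, and nothing is read from the lack of overlap. Set against Gsta4, it was 12.6%, 16.1% and 14.3% in the controls, and 28.9%, 22.1% and 36.3% in QC3, QC8 and QC10. Here QC6 lay with the other controls, because Gsta3 and Gsta4 were both at their lowest control level in that library. The authors' mean read coverage per FPKM, which should be near constant for a gene across libraries of like depth, ranged from 1.27 to 1.75 for Gsta3 (coefficient of variation 13.8%) and varied by 2.55% to 2.81% for the other members. Coverage divided by depth, on a log2 scale without the added 1, gave differences of -0.84 (Gsta1), -0.78 (Gsta2), -0.66 (Gm10639), -0.62 (Gsta4) and 0.35 (Gsta3). That depth was itself taken from the ratio of coverage to FPKM, so these values are no independent check. For Gsta4 they equal its FPKM.

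**Figure D2:**
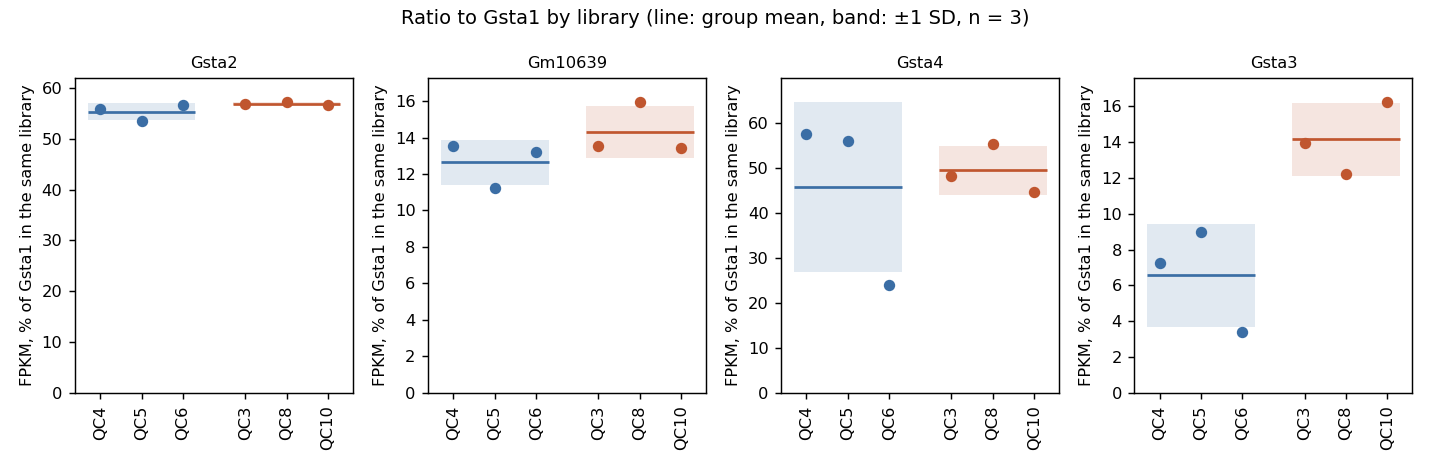
FPKM of Gsta2, Gm10639, Gsta4 and Gsta3 as a percent of Gsta1 in the same library (vertical axis, from 0) for each library (horizontal axis), with group means as lines and 1 SD as bands (n = 3). Gsta2 stays between 53.6% and 57.3%, Gsta4 drops to 23.9% in QC6, and Gsta3 lies between 3.42% and 8.995% in ApcMin and between 12.2% and 16.3% in ApcMin.PCdel libraries.

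The likeness of patterns was measured as the root mean square distance between log2(FPKM + 1) profiles over the 6 libraries, after each profile's mean was subtracted. Gsta1 and Gsta2 were 0.03 apart and no other gene was nearer to Gsta1, while Gsta2 and Gm10639 were 0.13 and Gsta1 and Gm10639 0.15 apart. Gsta4 was 0.43 from Gsta1, with 1953 non-member genes nearer, and Gsta3 was 0.71 from Gsta1, with 13338 nearer. The 5 non-member genes most like the summed members were Gm22711 (distance 0.11), Tmem120a (0.12), the choline kinase gene Chka (0.15), 2210019I11Rik (0.15) and the slow skeletal troponin T gene Tnnt1 (0.16). Tmem120a was at 68.8 ± 3.13 FPKM in ApcMin and 44.6 ± 7.22 FPKM in ApcMin.PCdel adenomas, and Chka at 16.9 ± 1.76 and 11.8 ± 1.05 FPKM (SD, n = 3 each). Gm22711 was near the filter, with a mean of 1.07 FPKM over the 6 libraries, and 2210019I11Rik (2.20) and Tnnt1 (3.08) were also low. For Gsta1 alone, the nearest were Tmem120a (0.14), Gm22711 (0.15), 2210019I11Rik (0.15), Tnnt1 (0.19) and the DNA exonuclease gene Trex1 (0.20). With 6 libraries, these distances describe the profiles only.

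The promoters of Gsta1 and Gm10639 are near copies, and that of Gsta2 is less alike. RefSeq windows of GRCm38.p6, from 250 bases before to 50 after the annotated start, were 97.9% identical between Gsta1 and Gm10639, 79.6% between Gsta1 and Gsta2, and 78.4% between Gsta2 and Gm10639, against 52.3% between Gsta1 and Gsta3. The 100 bases from 150 to 51 before the start are shown because they hold the longer runs shared by all 3 genes. Whether these promoters have a part in the levels was not tested. Capitals mark runs of at least 12 bases that occur in all 3 genes between 250 and 51 bases before the start. Bases past that cut were not compared for runs, so a run that crosses it in any of the genes is left unmarked. For Gsta2, the RefSeq start lies inside the gene span given above, well downstream of the upstream end of that span.
Gsta1, chr9:78230519-78230618, plus strand: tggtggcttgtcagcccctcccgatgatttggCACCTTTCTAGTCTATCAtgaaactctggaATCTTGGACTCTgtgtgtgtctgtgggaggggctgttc
Gsta2, chr9:78347196-78347295, minus strand: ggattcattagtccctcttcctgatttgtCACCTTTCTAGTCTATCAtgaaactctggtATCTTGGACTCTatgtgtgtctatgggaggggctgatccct
Gm10639, chr9:78289778-78289877, plus strand: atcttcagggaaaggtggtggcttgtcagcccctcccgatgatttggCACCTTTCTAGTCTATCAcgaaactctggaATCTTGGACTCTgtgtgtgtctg

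The same windows were searched on both strands for the core of the antioxidant response element, TGACNNNGC. It was found in 12.4% of all 32841 windows. Among the 4 members with a window, it was found in Gsta3 only, 121 bases before the start. The match is shown in capitals with 16 bases on either side, as the only match among the members.
Gsta3, chr1:21240448-21240488, plus strand: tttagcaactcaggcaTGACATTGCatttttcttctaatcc
These windows are short, and the absence of the letters says nothing of NRF2 acting on the other members.

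The members made up a fair part of all GST transcripts. Across the 27 GST genes found, Gsta1 was the third by level per length in ApcMin adenomas, after Gsto1 (535.4 ± 80.4 FPKM) and the microsomal Mgst3 (265.8 ± 24.5 FPKM), and Mgst1 (162.4 ± 5.97 FPKM) came next. In the 3 ApcMin libraries, Gsta1 overlapped neither Mgst3 (246.3 to 293.3 FPKM) nor Mgst1 (156.1 to 168.0 FPKM), but it overlapped Gstp1 (149.96 to 179.3 FPKM). Gsta2 was the seventh and overlapped Gstp2 (99.3 to 112.8 FPKM), the next in order. Gsta4 was the ninth and Gm10639 the 14th, with the range of Gsta4 reaching both Gsta2 and Gstk1 (57.8 ± 8.49 FPKM, SD, n = 3). Gsta3 was the 20th, close to Gstm2 (12.7 ± 0.834 FPKM). The members took 19.6%, 24.0% and 18.4% of all GST FPKM in QC4, QC5 and QC6, and 16.4%, 15.1% and 12.9% in QC3, QC8 and QC10.

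The question whether other GST classes differed between the genotypes was addressed with limma over all 14240 genes, with Benjamini-Hochberg adjustment. Of 20 genes of other classes tested, 0 passed the adjusted threshold of 0.05 in limma, where 0.014% of all genes did (2 genes). At an unadjusted p under 0.05, where 0.681% of all genes were lower and 2.7% higher, 1 of the 20 was lower and 0 were higher. That gene was Gstk1, the mitochondrial and peroxisomal kappa enzyme, at 57.8 ± 8.49 in ApcMin and 44.0 ± 4.62 FPKM in ApcMin.PCdel adenomas, a log2 difference of -0.38 (limma adjusted p = 0.99997). Mean log2 levels of 14 were lower and of 6 higher, where 36.9% of all genes tested were lower, and the median difference was -0.11. Gsto1 was at 535.4 ± 80.4 and 475.2 ± 86.4 FPKM (log2 difference -0.18), Mgst3 at 265.8 ± 24.5 and 226.5 ± 30.6 FPKM (-0.24), Mgst2 at 152.3 ± 13.2 and 122.9 ± 51.6 FPKM (-0.39) and Gstm3 at 26.9 ± 19.0 and 15.2 ± 1.76 FPKM (-0.59). None of these 4 passed the test, and of them only Mgst3 had groups that did not overlap. Gstm3 was at 17.5, 14.5 and 48.8 FPKM in QC4, QC5 and QC6. Its ApcMin.PCdel libraries ran from 13.4 to 16.9 FPKM, so its higher control mean rests on QC6. Summed over other classes, the level was 1710 ± 177.0 FPKM in ApcMin and 1538 ± 163.4 FPKM in ApcMin.PCdel adenomas, a difference of about the size of the spread (SD, n = 3 each). This sum was highest in QC6, at 1911 FPKM, and lowest in QC8, at 1351 FPKM.

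Glutathione, the substrate the members use, is made by glutamate-cysteine ligase and glutathione synthase. Of 15 genes of its synthesis and turnover, 0 passed in limma adjusted or unadjusted, and the median difference was 0.05. Gclm, the modifier subunit of the ligase, was at 18.7 ± 3.12 in ApcMin and 14.1 ± 2.05 FPKM in ApcMin.PCdel adenomas without overlap (log2 difference -0.38), and was the only gene of the list whose groups did not overlap. The gamma-glutamyltransferase gene Ggt1 was at 241.6 ± 109.6 and 213.7 ± 33.6 FPKM, and the aminopeptidase gene Anpep at 525.8 ± 178.4 and 564.1 ± 147.8 FPKM. Chac1, which degrades glutathione, was near the filter at 1.41 ± 0.997 and 1.74 ± 0.752 FPKM.

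Glutathione peroxidases, which reduce hydroperoxides as some alpha-class enzymes also do, held 0 of 7 genes past the adjusted threshold in limma. At an unadjusted p under 0.05, where 3.38% of all genes stood, there were 2. Gpx1, the cytosolic enzyme, was at 198.4 ± 82.7 in ApcMin and 103.7 ± 18.4 FPKM in ApcMin.PCdel adenomas with overlap (log2 difference -0.84), and Gpx3, the secreted enzyme, at 38.4 ± 2.48 and 48.7 ± 3.38 FPKM without overlap (0.34). Gpx2, the main gastrointestinal form, was at 896.2 ± 52.1 and 871.0 ± 132.1 FPKM, and Gpx4, which acts on membrane lipids, at 236.7 ± 65.7 and 197.8 ± 33.9 FPKM. The list's median difference was 0.04.

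NRF2, measured as transcript and not as protein, showed no difference past the test. Its gene Nfe2l2 was at 91.2 ± 5.51 in ApcMin and 87.5 ± 7.78 FPKM in ApcMin.PCdel adenomas (log2 difference -0.06), Cul3, of the ligase that degrades NRF2, at 24.8 ± 1.58 and 25.8 ± 0.583 FPKM, and the repressor Bach1 at 14.3 ± 0.927 and 16.5 ± 1.97 FPKM. Mafk, a small Maf partner of NRF2, was at 16.7 ± 0.408 and 18.7 ± 1.003 FPKM without overlap. Of 7 regulators and 21 further target genes of NRF2, 0 passed in limma adjusted or unadjusted, with median differences of 0.05 and -0.06. The ferritin genes Fth1 and Ftl1 were at 2034 ± 206.5 against 1775 ± 38.1 FPKM (no overlap) and at 658.4 ± 40.1 against 629.4 ± 40.7 FPKM. Osgin1 had the widest difference of the targets, 1.05 with a standard error of 0.50, at 9.41 ± 8.29 and 17.1 ± 3.95 FPKM, and Esd was at 85.8 ± 4.23 and 110.4 ± 19.8 FPKM without overlap.

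Exporters of glutathione conjugates and drugs held 0 of 8 genes past the adjusted threshold in limma and 1 at an unadjusted p under 0.05 (3.38% of all genes), which was Abcc4 (5.02 ± 1.44 in ApcMin and 7.16 ± 0.417 FPKM in ApcMin.PCdel adenomas, log2 difference 0.47). Abcg2 was at 25.1 ± 1.45 and 32.9 ± 9.36 FPKM and Abcb1a at 42.7 ± 7.15 and 39.5 ± 4.59 FPKM. Enzymes that clear lipid aldehydes, the substrates of Gsta4, held 0 of 10 in either count. Akr1a1 was level between groups at 486.7 ± 24.1 and 488.2 ± 52.1 FPKM, whereas Adh1 (212.9 ± 214.2 and 124.6 ± 41.1 FPKM), Aldh1a1 (73.0 ± 73.2 and 40.7 ± 7.18 FPKM) and Akr1b7 (40.1 ± 48.0 and 40.3 ± 16.4 FPKM) had control SDs as large as or larger than their means. Adh1, Aldh1a1 and Akr1b7 were each highest in the control library QC6 (459.9, 157.0 and 95.5 FPKM). The median differences of the exporters and the aldehyde enzymes were 0.08 and -0.02.

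Of 21 transcription factors linked to GST genes, 0 passed adjusted and 1 unadjusted in limma (3.38% of all genes unadjusted), with a median difference of -0.01. That factor was the glucocorticoid receptor gene Nr3c1, at 15.4 ± 0.925 in ApcMin and 19.4 ± 2.66 FPKM in ApcMin.PCdel adenomas (log2 difference 0.30). The hepatocyte and enterocyte factor Hnf4a was at 236.6 ± 5.21 and 258.5 ± 31.9 FPKM, the intestinal homeobox gene Cdx1 at 58.1 ± 6.92 and 59.97 ± 13.7 FPKM, and the xenobiotic receptor gene Nr1i3 at 10.5 ± 4.88 and 7.58 ± 1.45 FPKM. Over all 8 lists, 109 genes were tested and 0 passed the adjusted threshold in limma, while 3 were higher and 2 lower at an unadjusted p under 0.05. Among all genes tested, 2.7% were higher and 0.681% lower at that level, and nothing is read from the list counts.

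**Figure D3:**
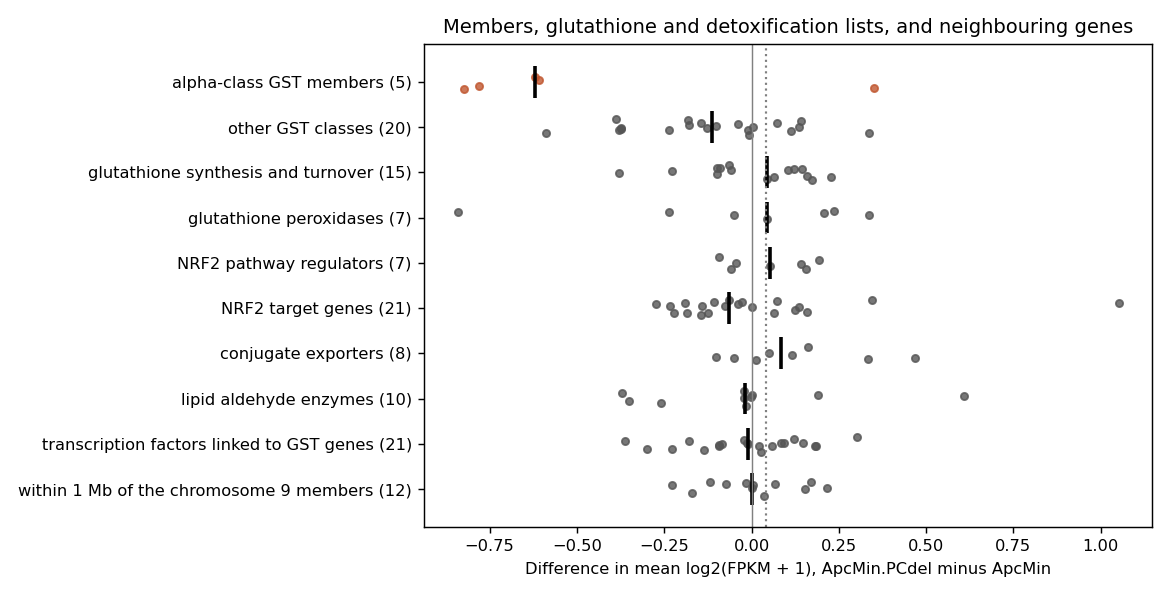
Difference in mean log2(FPKM + 1), ApcMin.PCdel minus ApcMin (horizontal axis), for the 5 members, the tested genes of 8 lists and the genes within 1 Mb of the chromosome 9 members (rows, with the number of genes). Points are genes, black bars medians, the solid line 0 and the dotted line the median of all genes tested, 0.04. The members were chosen on this contrast, and their median of -0.62 is shown for size only.

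Genes around the members gave the local background. Within 1 Mb of the chromosome 9 members, 37 genes were found and 12 tested, of which 0 passed in limma adjusted or unadjusted, with a median difference of 0.00. Gclc, the catalytic subunit of glutamate-cysteine ligase, is such a neighbour, at 26.5 ± 2.82 in ApcMin and 22.6 ± 2.80 FPKM in ApcMin.PCdel adenomas (log2 difference -0.23). The fatty acid elongase gene Elovl5 was at 20.9 ± 4.47 and 24.1 ± 0.465 FPKM (0.22) and Lrrc1 at 18.7 ± 4.24 and 21.5 ± 7.20 FPKM (0.17). Within 1 Mb of Gsta3, 6 of 42 genes were tested and 0 passed in limma adjusted or unadjusted. The widest differences there were Paqr8 (12.7 ± 5.80 and 9.31 ± 4.23 FPKM, -0.41), the replication gene Mcm3 (20.3 ± 3.65 and 24.9 ± 3.86 FPKM, 0.29) and Tmem14a (4.18 ± 0.457 and 5.09 ± 0.759 FPKM, 0.23).

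Sequencing depth was alike, from 5.41 to 5.88 gigabases of aligned sequence per library. For the adenoma label, 8 genes that rise with loss of Apc were looked at (Axin2, Lgr5, Nkd1, Notum, Sox9, Cd44, Ascl2 and Wif1), and none was at 0. Their summed level ran from 155.6 (QC6) to 297.7 FPKM in ApcMin and from 209.8 to 298.6 FPKM in ApcMin.PCdel libraries. With no normal tissue among the libraries, these levels do not test the label. Paneth cell markers had a lower mean in ApcMin.PCdel adenomas for 9 of 10 genes, and their summed level ran from 6024 to 13244 FPKM in ApcMin and from 3937 to 6977 FPKM in ApcMin.PCdel libraries. Liver markers, checked because liver is rich in the alpha class, were low, with 2 of 6 at 0 in all libraries and sums of 14.6 to 33.2 FPKM, and 4 of 5 pancreas markers were at 0. Epithelial markers overlapped between groups (4560 to 6507 and 5240 to 6579 FPKM), as did 6 stromal and immune markers (200.9 to 268.9 and 221.4 to 325.2 FPKM). On the log2 scale, 0 of 6 stromal and immune markers, 2 of 7 epithelial and 2 of 8 Apc-loss genes were lower in ApcMin.PCdel adenomas. Among all genes tested, 36.9% were lower.

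Markers of the place along the small intestine also differed between libraries. The summed level of 5 distal markers (Fabp6, Slc10a2, Slc51a, Slc51b and Cubn) was 119.7, 128.0 and 132.1 FPKM in QC4, QC5 and QC6, and 91.7, 1771 and 888.3 FPKM in QC3, QC8 and QC10. None of the 5 was at 0 in all libraries. Fabp6, the ileal bile acid binding protein, was at 2.39 to 23.6 FPKM in the controls, 6.18 in QC3, 1477 in QC8 and 630.2 in QC10. Slc10a2, Slc51a and Slc51b were also highest in QC8 and QC10, whereas Cubn was not, at 4.01, 2.98 and 10.6 FPKM in QC4, QC5 and QC6 and at 1.18, 3.30 and 5.59 FPKM in QC3, QC8 and QC10. Thus QC8 and QC10, where the summed members were lowest, had the highest levels of 4 of the 5 distal markers, with Fabp6 making up most of the sum, and QC3 did not. Compared with the controls, QC3 alone gave a difference of -0.55 for Gsta1, -0.51 for Gsta2, -0.43 for Gm10639, -0.37 for Gsta4 and 0.60 for Gsta3, and its sum of 318.4 FPKM was below the lowest control sum of 399.4 FPKM. QC3 is 1 library, so this comparison has no spread on its side. Gsta1, Gsta2 and Gm10639 in QC3 lay below all controls. Gsta4 (66.0 FPKM) and Gsta3 (19.1 FPKM) lay within the control ranges (52.3 to 121.4 and 7.48 to 19.5 FPKM). The 4 proximal markers (Gata4, Cybrd1, Slc40a1 and Onecut2) summed to 59.3 to 81.6 FPKM in ApcMin libraries and to 75.2, 54.7 and 34.2 FPKM in QC3, QC8 and QC10. The part of these markers in the members' difference was not tested.

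Enterocyte markers differed most in the control library QC6. The 18 markers summed to 15100, 14685 and 33869 FPKM in the ApcMin libraries QC4, QC5 and QC6, and to 16358, 13734 and 20558 FPKM in QC3, QC8 and QC10, none being at 0 in all libraries. Mean FPKM was lower in ApcMin.PCdel adenomas for 17 of 18, and the sum was 79.6% of that in ApcMin adenomas. On the log2 scale 15 were lower and 3 higher, where 36.9% of all genes tested were lower, and 0 had groups without overlap. The lower sum rests on QC6, as the sums in QC4 and QC5 lay below those in QC3 and QC10 and above that in QC8. For 16 of 18, QC6 was the highest library, whereas Gsta4 and Gsta3 were at their lowest control level there and Gsta1, Gsta2 and Gm10639 at their highest. The part of enterocyte content in these levels was not tested.

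**Figure D4:**
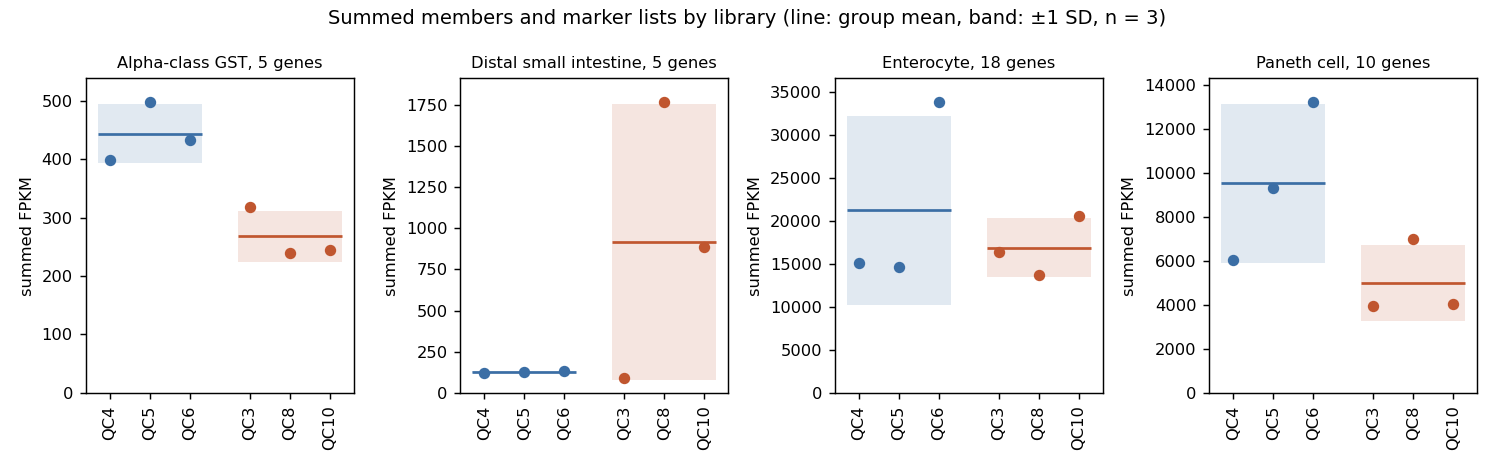
Summed FPKM (vertical axis, from 0, a scale of its own in each panel) of the 5 members and of the distal small intestine, enterocyte and Paneth cell markers in each library (horizontal axis), with group means as lines and 1 SD as bands (n = 3). QC8 and QC10 have distal marker sums of 1771 and 888.3 FPKM, mostly Fabp6, and QC6 the highest enterocyte sum, 33869 FPKM.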

How the data were processed

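RNA-seq was performed by the authors on 6 adenoma samples with the TruSeq RNA kit on a HiSeq2500 instrument. Their methods name CLC Genomics Workbench 7 and a normalization in MatLab without settings, and the program, annotation and rule for shared reads behind the deposited values are not given in the sources used here. The authors deposited FPKM, TPM and mean read coverage (signal) per gene. Separate entries of a gene were summed, giving 48440 genes, and gene positions matched GRCm38. Depth was taken from the ratio of coverage to FPKM (5.41 to 5.88 gigabases), and no read counts, counting intervals or floors were derived.

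Genes whose mean FPKM reached 1 (14240) were compared on log2(FPKM + 1) with limma 3.58.1 in R 4.3.3 (lmFit, eBayes with trend, 3 libraries a group, no covariate) and Benjamini-Hochberg adjustment at 0.05, after a test on simulated data. Members were given no test. The members and lists were chosen with earlier results of these data known. Named genes are the 5 members and, per list, genes past the threshold, the 2 of highest mean FPKM and the 2 of largest absolute difference. The 3 neighbours of largest difference per region and the 5 genes of nearest pattern were added. Others are those with an unadjusted p under 0.05 or groups without overlap, named after their values were seen (1 such gene and a motif are not reported here), and Mgst1, Gstp1, Gstp2 and Gstm2 as neighbours in level. Sequences were read from GENCODE M21 and RefSeq (GRCm38.p6, 4 members matched) with Python 3.11.15, pandas 2.3.3 and Biopython 1.88. Alternatives were no filter, a minimum FPKM of 5, a pseudocount of 0.1, TPM, quantile normalization, median centring, array quality weights, each library left out, coverage, and QC8 and QC10 left out.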

Additional observations from a re-analysis of the deposited data

How the results depend on the processing

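The differences of Gsta1, Gsta2, Gm10639, Gsta4 and the summed members kept their sign under all alternatives run, and that of Gsta3 under all but array quality weights (-0.040). Coverage is no independent alternative among these, since the depth that scaled it was taken from FPKM. With each library left out in turn they ranged from -0.96 to -0.73 (Gsta1), -0.92 to -0.69 (Gsta2), -0.71 to -0.53 (Gm10639), -0.96 to -0.36 (Gsta4, lowest without QC6 and highest without QC5), 0.03 to 0.67 (Gsta3, lowest without QC6 and highest without QC5) and, for the log2 ratio of the summed members, -0.87 to -0.64. Leaving out QC8 and QC10 together, chosen after seeing the data as was the use of coverage, gave -0.55 for Gsta1, -0.51 for Gsta2, -0.43 for Gm10639 and -0.48 for the sum, a comparison in which QC3 is assumed to vary like the controls.

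Across all genes, limma called 2 at the adjusted threshold, 1 without a filter, 1 with median centring, and 1 to 5 with a library left out (5 without QC4). At an unadjusted p under 0.05 there were 481 genes, 976 without a filter (27208 tested), 260 with a minimum FPKM of 5 (9837 tested), 1270 with array quality weights, and 358 to 820 with a library left out (820 without QC6). The part of the 481 that was higher in ApcMin.PCdel was 79.8%, against 88.0% with TPM, 61.4% with median centring, 58.9% with quantile normalization, 59.4% without QC6 and 63.5% with array quality weights, and 4 members were lower in each, or 5 with array quality weights. Of the list genes, 5 had an unadjusted p under 0.05, 3 without a filter, 9 with array quality weights, 0 without QC8 and QC10, and 3 to 7 with a library left out, while 0 passed the adjusted threshold and 0 neighbours passed either in any alternative. The cause was not tested beyond the number of genes tested. No paired analysis was run, because the sample names are library codes that carry no pairing. The study describes littermate controls and co-housing of both genotypes in its tumor experiments, so pairs may exist without being labelled. Having 3 libraries per group, the absence of read counts and the shared sequence of Gsta1, Gsta2 and Gm10639 limit what can be told apart.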
